A study of Mus musculus with 20 samples.

Results

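The constitutive proteasome subunits are the Psma, Psmb, Psmc and Psmd genes that encode the standard proteasome, with the inducible catalytic subunits Psmb8, Psmb9 and Psmb10 left out. They were chosen by symbol alone, and 36 of the 34291 rows of the count table met the rule, of which 16 encode the core particle (Psma and Psmb) and 20 the regulatory particle (Psmc and Psmd). The data are RNA-seq counts from whole hearts of C57BL/6 mice, 1 library per heart. The 10 treated animals ate food with 14 ppm rapamycin, an inhibitor of the kinase mTOR, from 24 months of age for 3 months, and the 10 controls ate the control diet for the same time. All animals were 27 months old at collection, and the labels name no other allele or agent in either group. A single dose, duration and age were sampled, and no young hearts were analysed here.

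The proteasome degrades proteins that carry ubiquitin chains. Its core particle is a barrel of stacked rings, in which alpha subunits form the outer gate and beta subunits the inner rings, where Psmb5, Psmb6 and Psmb7 carry the proteolytic sites. The regulatory particle caps the barrel: a ring of Psmc ATPases unfolds substrates, and the Psmd proteins bind ubiquitin, remove it and hold the cap together. Cardiac muscle relies on this system for turnover of sarcomeric and misfolded proteins, and mTOR inhibition is known to alter both protein synthesis and degradation. The comparison asked whether late rapamycin feeding changed the mRNAs of this machine in the aged heart, and whether its core and its cap moved alike.

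No constitutive subunit passed the test. Of the 35 members with enough counts to test, 15 core and 20 regulatory, edgeR's quasi-likelihood test called 0 at an adjusted p below 0.05, where 3.36% of the 13940 genes tested were called (96 higher and 373 lower with rapamycin). At an unadjusted p below 0.05 there were 3 members, Psmc3 and Psmd2 higher and Psmd14 lower, against 21.7% of all genes. DESeq2 called 2 of the 35, Psmc3 (log2 fold change 0.19, adjusted p = 0.0265) and Psmd14 (-0.19, adjusted p = 0.0344), with a background of 6.14% of 16574 genes, and 5 members had an unadjusted p below 0.05 in it, against 15.3% of all genes. The 1 untested member, Psmb11, is described further on.

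The intervals around the members were narrow. The 95% interval of the fold change lay within 1.25-fold of no change for 33 of 35 members (94.3%), against 48.5% of all genes tested. Among members with at least 10 CPM (a count scaled to its library's total) this held for 33 of 34 (97.1%), against 63.4% of genes at that level. The exceptions were Psmd14, at 0.795 to 0.947 of the control level, and the weakly expressed Psma8, at 0.709 to 1.10. The highest upper bound was 1.24-fold, for Psmd2. All these intervals rest on TMM scaling of the libraries. Without a scaling factor the median log2 fold changes were -0.12 for the core and -0.080 for the regulatory particle, and Psmd14 had -0.33. Intervals for that setting are not given here. Members also varied little between animals: their median coefficient of biological variation in the fit was 0.102 (range 0.0787 to 0.165), against 0.147 over all genes and 0.126 over genes of at least 10 CPM.

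**Figure D1:**
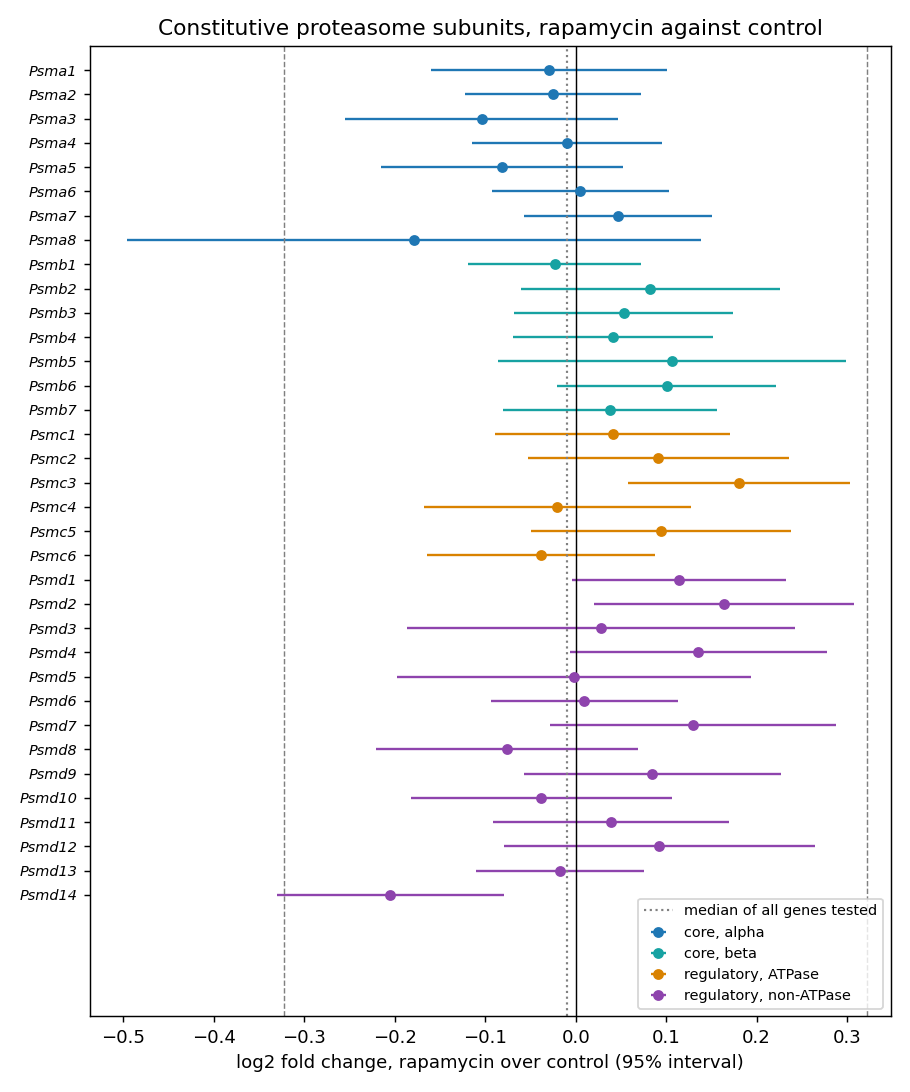
Log2 fold change of each tested constitutive subunit, rapamycin over control (x axis), with its 95% interval, 1 row per gene and coloured by class. Dashed lines mark 1.25-fold in either direction, the dotted line the median of all genes tested, and all intervals except those of Psma8 and Psmd14 lie between the dashed lines.

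The libraries held 7039514 to 12458309 counts, and the members took 0.258 to 0.300% of them. Cardiomyocyte markers (Myh6, Tnnt2, Tnni3, Actc1, Myl2, Ryr2) summed to 14926 to 45718 CPM in control hearts (median 37533). In rapamycin hearts the sum was 37040 to 46769 CPM (median 44478). None of the 6 was called, and the defining genes of the labelled tissue were high in every library. The part of this difference in the values of the members was not tested. Control 19 stood apart: it had the lowest cardiomyocyte sum, the highest macrophage sum (3795 CPM against a control median of 631) and 28091 CPM of 5 lung markers, whose control median was 1.72. That library also held the lowest value of 13 of the 34 members at or above 10 CPM and the highest value of 3 others. Without it edgeR again called 0 members, and the core and regulatory medians given below were 0.02 and 0.04. In bulk tissue fewer cells of a type and less RNA per cell cannot be told apart.

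Promoters are shown first, because subunit genes are known to be driven together, by Nfe2l1 through antioxidant response elements. RefSeq promoter windows, 250 bases before to 50 after the start in GRCm38.p6, were matched for 29 of the 36 members. The core of the antioxidant response element, TGACNNNGC on either strand, was found in 5 of 29 (17.2%), in Psmb5, Psmb6, Psmc6, Psmd9 and Psmd12. The same letters were in 14.0% of the promoters of all 27025 genes in the table and in 17.1% of those of 9475 genes tested here, so the members' share is close to the background. The stricter form TGACTCAGC was in 0 of the 29 and in 0.503% of all. Of the 5 windows 3 had the motif within 50 bases of the start, with the motif in capitals, 5′ to 3′ along the gene:
Psmb5, chr14:54618020-54618056, minus strand: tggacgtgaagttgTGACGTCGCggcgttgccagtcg
Psmb6, chr11:70525334-70525370, plus strand: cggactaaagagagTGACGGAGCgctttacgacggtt
Psmd9, chr5:123228145-123228181, plus strand: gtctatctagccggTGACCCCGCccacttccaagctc
In Psmb5 and Psmb6, which encode proteolytic sites, the motif began at -47 and -9 from the start, and in the assembly chaperone Psmd9 at -31.

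An ETS-type core, CCGGAAG on either strand, was searched after the data had been seen. It was in 10 of 29 member promoters (34.5%), against 9.93% of all and 18.4% of tested genes, and it lay mostly on one side of the machine: 9 of 17 regulatory genes in the table had it and 1 of 12 core genes, Psma6. The regulatory genes were Psmc1, Psmc2, Psmc6, Psmd2, Psmd4, Psmd6, Psmd11, Psmd12 and Psmd13. A match is a description of the letters and not of a bound site. Windows of 4 of the 9 regulatory genes are printed as examples, with the motif, or its reverse complement CTTCCGG, in capitals:
Psmd2, chr16:20651612-20651646, plus strand: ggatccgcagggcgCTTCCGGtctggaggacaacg
Psmd4, chr3:95042719-95042753, minus strand: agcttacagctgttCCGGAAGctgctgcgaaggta
Psmd12, chr11:107479497-107479531, plus strand: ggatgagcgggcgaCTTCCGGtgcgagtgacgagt
Psmd13, chr7:140882374-140882408, plus strand: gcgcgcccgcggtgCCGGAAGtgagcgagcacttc
The motif began at -26 in Psmd2, -125 in Psmd4, -17 in Psmd12 and -6 in Psmd13. These positions belong to GRCm38.p6 and not to the build to which the reads were mapped.

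In control hearts the subunit mRNAs were far from equal, although the proteins are built into 1 complex. Levels are given here as CPM per kb of coding sequence, so that genes can be compared. The core subunits, without the tissue-restricted Psma8, had a median of 110 (50.4 to 191, a 3.79-fold range, n = 14 genes), and the regulatory subunits, without 3 assembly chaperones, a median of 59.8 (39.6 to 124, 3.14-fold, n = 17). Alpha and beta subunits had like medians, 108 and 111, and so did ATPases and non-ATPases, 66.8 and 59.8. With exon length in place of coding length, an alternative added after the data were seen, the core and regulatory medians were 70.4 and 48.1. Their ranges were wider, 7.21-fold and 5.26-fold. The order within the core then shifted, since Psma2 went from rank 6 to 29, Psma3 from 17 to 30 and Psmb1 from 3 to 13.

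The highest level was that of Psmb7, the trypsin-like catalytic subunit, at 191 ± 17.1 CPM per kb (SD, n = 10). Psma1 followed at 155 ± 13.7, Psmb1 at 144 ± 10.3 and Psma6 at 140 ± 7.85, and the last 2 differed by less than their SD. Per kb of exon length, however, Psmb1 was at 58.9 and Psma6 at 99.0. Psmc3 was the highest ATPase at 124 ± 11.3 and Psmc4 the lowest at 43.2 ± 5.42. The catalytic subunits were not matched: Psmb6, the caspase-like site, stood at 111 ± 9.37 and Psmb5, the chymotrypsin-like site and lowest of the beta subunits, at 62.0 ± 10.4. Among alpha subunits other than Psma8 the lowest was Psma5 at 50.4 ± 4.89. Among the Psmd genes Psmd7, the inactive partner of the deubiquitinase, was highest per coding length at 93.0 ± 13.3, and Psmd2 per exon length. Psmd11, a lid scaffold, was at 39.6 ± 4.12.

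The chaperones of base assembly, which leave the finished particle, were the lowest of the regulatory genes. Psmd9 was at 25.6 ± 2.48 CPM per kb, Psmd10 at 20.1 ± 1.78 and Psmd5 at 15.03 ± 2.69. Psma8, the alpha subunit of the testis proteasome, was at 2.22 ± 0.479. Several values may include reads of other genes, since the strand of counting is not given: exons of 8 members overlap those of another gene, 6 of them on the opposite strand, among them Psmb7 with Nek6 and Psmc3 with Slc39a13.

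**Figure D2:**
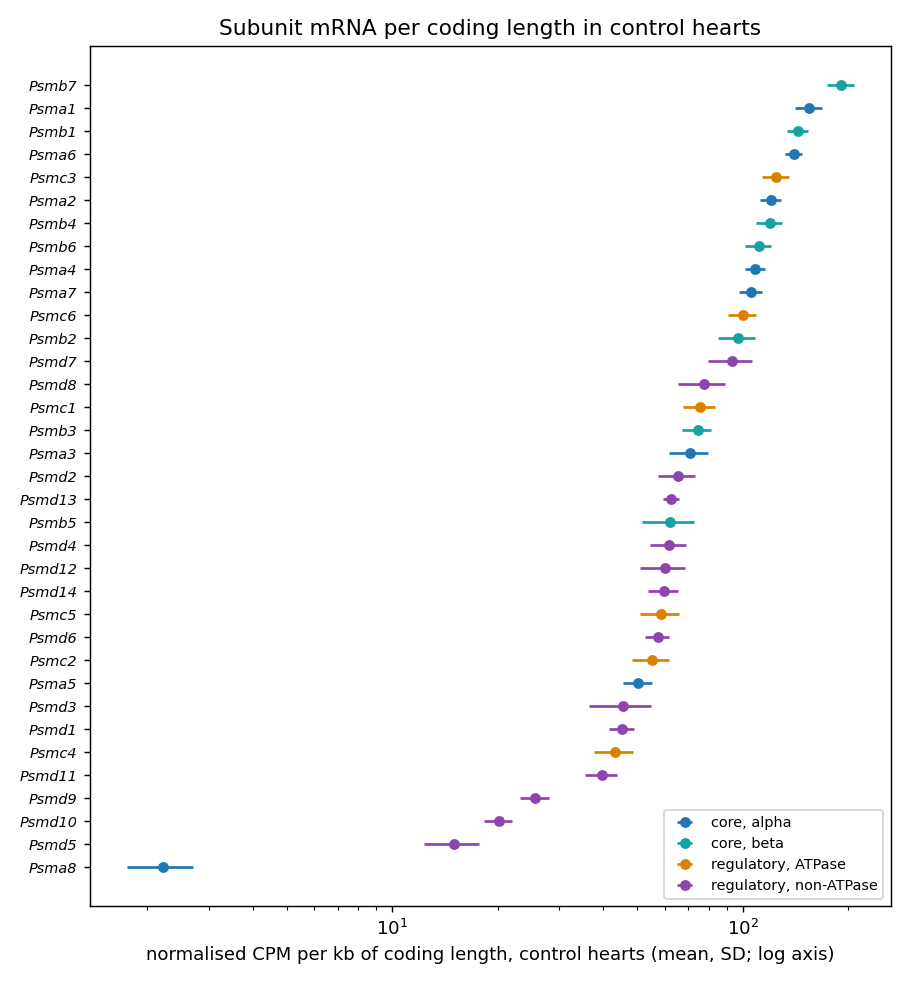
Level of each tested subunit in the 10 control hearts, as normalised CPM per kb of coding length (mean and SD, log x axis), ordered from highest to lowest. Psmb7 at 191 leads, the chaperones Psmd9, Psmd10 and Psmd5 lie at 25.6 or less, and Psma8 is at 2.22.

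The core particle gave no member below an unadjusted p of 0.05. Its median log2 fold change was 0.01 over 15 genes, with 8 above 0, beside -0.01 over all genes tested, of which 47.5% were above 0. Among genes with at least 10 CPM the share above 0 was 54.3% (median 0.01), and among members at that level 61.8% (median 0.04). The alpha and beta rings lay on different sides under TMM: 2 of 8 alpha genes were above 0 (median -0.03), and 6 of 7 beta genes (median 0.05). Because the classes were compared after their values were seen, this is a description without a test.

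Among the alpha subunits the smallest p values were those of Psma3, Psma5 and Psma8. Psma3 had a lowest, median and highest normalised CPM of 46.7, 52.2 and 69.6 in control and 44.4, 49.0 and 61.6 in rapamycin hearts, and the groups overlapped (-0.10, adjusted p = 0.419). Its highest value was that of control 19, without which the fold change was -0.05. Psma5 was at 36.4 ± 3.53 in control and 34.4 ± 3.34 in rapamycin hearts (-0.08, adjusted p = 0.482). Psma8 was at 1.67 ± 0.359 and 1.46 ± 0.311 (-0.18, adjusted p = 0.580), a level at which counting error is large. The other alpha genes, Psma1, Psma2, Psma4, Psma6 and Psma7, had log2 fold changes of -0.03 to 0.05.

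The proteolytic subunits had values slightly above control under TMM scaling, and slightly below without a scaling factor (Psmb5 -0.01, Psmb6 -0.02, Psmb7 -0.08). Psmb5, target of the drug bortezomib, ran from 37.4 through a median of 47.8 to 63.3 CPM in control and from 41.4 through 53.8 to 60.9 in rapamycin hearts. The log2 fold change was 0.11 ± 0.09 (SE) with an adjusted p of 0.527; its interval was 0.942 to 1.23-fold, and the groups overlapped. Psmb6 was 65.0, 81.3 and 90.5 CPM in control and 72.6, 87.1 and 91.4 in rapamycin hearts (0.10 ± 0.06, adjusted p = 0.322), with 8 of 10 rapamycin hearts above the control median. Psmb7 was 137, 158 and 177 against 145, 160 and 186 CPM (0.04 ± 0.06, adjusted p = 0.739), and the groups overlapped almost fully. Psmb2 had 0.08 (adjusted p = 0.509), or 0.04 without control 19, and Psmb1, Psmb3 and Psmb4 lay between -0.02 and 0.05.

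Within each library the alpha mean log2 CPM (without Psma8) minus the beta mean, which needs no scaling factor, was -0.03 ± 0.11 in control and -0.11 ± 0.06 in rapamycin hearts (SD, n = 10 each). The groups overlapped, from -0.18 to 0.20 in control and from -0.19 to -0.01 in rapamycin hearts, and the highest value was that of control 19.

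The regulatory particle held the 3 members with the smallest p values, in both directions. Its median log2 fold change was 0.04 over 20 genes, with 13 above 0 (65%, beside 54.3% of genes with at least 10 CPM). Psmd14, the deubiquitinase that cuts ubiquitin chains off substrates at the mouth of the particle, had the smallest p of all members. Its lowest, median and highest normalised CPM were 48.6, 56.9 and 66.6 in control hearts and 43.9, 46.9 and 56.0 in rapamycin hearts. All 10 rapamycin hearts were below the control median and 7 were below every control heart. The means were 55.4 ± 5.58 and 48.0 ± 3.79 CPM, a log2 fold change of -0.20 ± 0.06 (SE), with an unadjusted p of 0.00268 and an adjusted p of 0.0608. When each library was left out in turn the adjusted p ran from 0.0447 to 0.113, and Psmd14 was called in 3 of 20 fits, without rapamycin 8, control 16 or control 20. Without the 4 libraries in which lung transcripts were above background (control 1, 19 and 20 and rapamycin 15) edgeR called it (-0.25, adjusted p = 0.0472), with 2% of 14014 genes called. It is the 1 member in the authors' deposited table of 700 genes. That table holds values of the same 20 libraries, so this is not independent evidence. It lists 1 of 36 members, and 700 genes beside the 34291 rows of the count table.

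Psmd7, which pairs with Psmd14 in the lid, had a value on the other side of 0, at 89.6 ± 12.8 CPM in control and 98.1 ± 7.82 in rapamycin hearts (0.13 ± 0.08, adjusted p = 0.327). The log2 ratio of Psmd14 to Psmd7 counts within a library, picked after the values of Psmd14 were seen and so not tested, was -0.68 ± 0.28 in control and -1.03 ± 0.17 in rapamycin hearts (SD, n = 10 each). It ran from -0.98 to -0.14 and from -1.19 to -0.67, so the groups overlapped. The -0.14 was that of control 19, the library with the lowest Psmd7 value, 63.6 CPM. Without control 19 the log2 fold change of Psmd7 was 0.09.

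Psmc3, an ATPase of the unfolding ring, had the largest value above 0. It ran from 136 through a median of 168 to 186 CPM in control and from 172 through 190 to 215 in rapamycin hearts. All 10 rapamycin hearts were above the control median and 6 were above every control heart. The log2 fold change was 0.18 ± 0.06 (SE), with an unadjusted p of 0.00603 and an adjusted p of 0.0857, and none of the 20 fits with 1 library left out called it (adjusted p 0.0579 to 0.149). Of the other ATPases, Psmc2 (0.09, adjusted p = 0.459) and Psmc5 (0.09, 0.441) had the next smallest p values, and Psmc1, Psmc4 and Psmc6 lay from -0.04 to 0.04.

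The scaffold proteins Psmd1 and Psmd2, on which ubiquitin receptors and shuttle proteins dock, had values above control, that of Psmd1 not without a scaling factor (-0.01). Psmd2 was 138, 174 and 217 CPM (lowest, median, highest) in control and 167, 205 and 220 in rapamycin hearts, with 9 of 10 above the control median (0.16 ± 0.07, adjusted p = 0.171). Psmd1 was 106, 128 and 147 against 122, 141 and 159 CPM, with 8 of 10 above the control median (0.11 ± 0.06, adjusted p = 0.245). Psmd4, a ubiquitin receptor, was 57.1, 68.0 and 86.4 against 67.8, 76.2 and 90.4 CPM, with 9 of 10 above the control median (0.14 ± 0.07, adjusted p = 0.253). In all 3 the groups overlapped, and none was called by edgeR or DESeq2.

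The assembly chaperones stayed near 0: Psmd9 had 0.08 (adjusted p = 0.489), Psmd10 -0.04 (0.792) and Psmd5 -0.00 (0.995). The remaining lid and base genes, Psmd3, Psmd6, Psmd8, Psmd11, Psmd12 and Psmd13, ranged from -0.08 for Psmd8 to 0.09 for Psmd12.

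**Figure D3:**
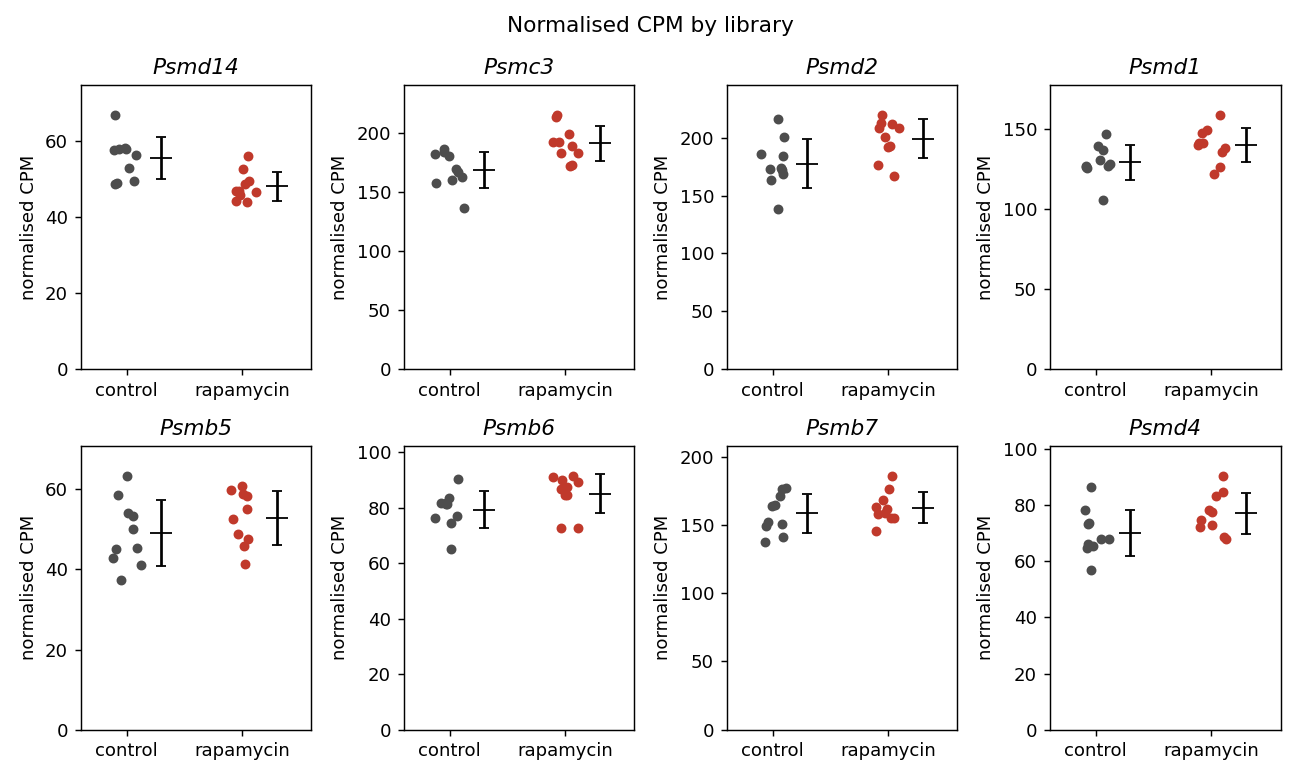
Normalised CPM of 8 subunits in each heart (points), with mean and SD beside each group, y axes from 0. Psmd14 has 7 rapamycin hearts below every control heart and Psmc3 has 6 above, while the groups of the other 6 genes overlap more.

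The core and the cap were compared as a description without a test. The difference of their median log2 fold changes, core minus regulatory, was -0.03. In single hearts the mean log2 CPM over core subunits was 5.89 ± 0.07 in control and 5.90 ± 0.07 with rapamycin, and that over regulatory subunits 6.05 ± 0.09 and 6.10 ± 0.06 (SD, n = 10 each). Psma8 and the assembly chaperones, left out of the medians of level above, are included in these means. Core minus regulatory was -0.16 ± 0.06 in control hearts, with a median of -0.15 (from -0.25 to -0.07). In rapamycin hearts it was -0.20 ± 0.06, with a median of -0.22 (from -0.26 to -0.09). These ranges overlap nearly fully, and the shift was not tested. Single hearts stood out more than groups: control 13 held the highest value of 10 of 34 members, and rapamycin 9 the lowest of 7.

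**Figure D4:**
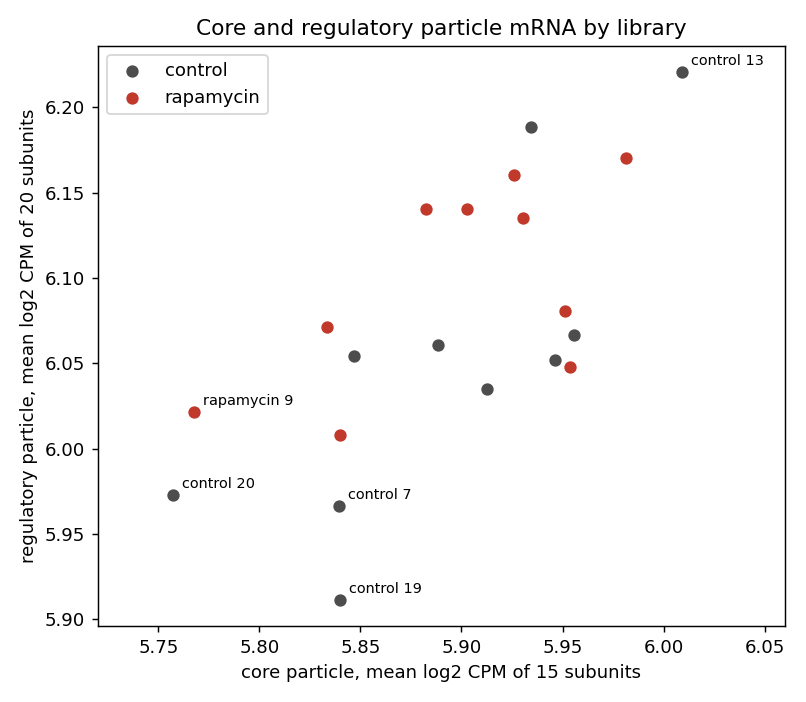
Mean log2 CPM over 15 core subunits (x axis) and 20 regulatory subunits (y axis), 1 point per heart, coloured by diet. The groups share the same range on the x axis, and the regulatory means run from 5.91 in control 19 to 6.22 in control 13, both control hearts.

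Over the 34 members of at least 10 CPM the median coefficient of variation was 9.70% in control (5.53 to 19.9) and 7.98% in rapamycin hearts (4.53 to 13.1), a description without a test. Without control 19 the control median was 9.28%, and for Psmb2 the control value went from 12.2 to 6.66%, beside 7.49% with rapamycin.

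These directions depend on how libraries are scaled. Without a scaling factor the median of all genes was -0.13, and 4 of 35 members were above 0 instead of 21, but 21 were above that median, against 23 with TMM. In the same way the beta subunits had 6 of 7 genes above the median of all genes under TMM, DESeq2 size factors and no scaling factor, and the alpha subunits 3, 3 and 2 of 8. The median of all genes is not matched for level, while 34 of the 35 members had at least 10 CPM. Under TMM it was -0.01, and over genes with at least 10 CPM 0.01. Counts against a matched median are not given here. Without a scaling factor edgeR called 2 members, Psma5 (-0.20) and Psmd14 (-0.33), and 9.56% of all genes. As a plain share of each library's counts the members took 0.284% ± 0.00837 in control and 0.271% ± 0.00814 in rapamycin hearts (SD, n = 10 each).

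The last member, Psmb11, encodes the beta subunit that replaces Psmb5 in the thymus. It had 70 counts in all and was too rare to test, and 67 of them lay in 2 hearts, 40 in control 17 and 27 in rapamycin 8. It was at 1 count in control 2, at 2 in control 16 and at 0 in the other 16 libraries, where 0 allows at most 0.241 to 0.426 CPM (3 counts, counting error only). The thymocyte genes Rag1, Dntt and Ptcra summed to 4.44 CPM in control 17 and 20.1 CPM in rapamycin 8, and to 0.211 CPM or less in each of the other 18 libraries. None of these markers was at 0 in all libraries.

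Around the constitutive subunits, 43 genes of the pathway were followed, and all were tested. Only Psmb10 was called by edgeR, against the background of 3.36%, with 8 of 43 at an unadjusted p below 0.05, against 21.7% of all genes. The median was 0.06 and 29 of 43 were above 0 (14 without a scaling factor, when 29 were above the median of all genes). Under TMM 67.4% of the 43 were thus above 0, beside 54.3% of genes with at least 10 CPM. Other subunits and proteins associated with the particle had 10 of 10 genes above 0 (median 0.10), none of them called by edgeR. Without a scaling factor 4 of the 10 were above 0 and 10 above the median of all genes. The ubiquitin ligase Ube3c, which rides on the particle, was at 68.6 ± 4.94 and 75.9 ± 4.90 CPM (0.15 ± 0.05, adjusted p = 0.104), and DESeq2 called it (adjusted p = 0.0388). The deubiquitinase Uchl5, bound to the cap, had 0.13 (adjusted p = 0.227).

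Activators differed in sign without being called. Psme1 had 0.11 (adjusted p = 0.413), or -0.02 without a scaling factor. Psme2, its partner in an interferon-induced cap, had -0.11 (0.385), or -0.06 without control 19. Psme4, which encodes the cap PA200, was abundant at 401 ± 60.3 CPM in control and 436 ± 26.9 in rapamycin hearts (0.12, 0.382). The core assembly chaperones had a median of -0.06, and Pomp, which guides assembly of the beta ring, had -0.06 (0.603). Nfe2l1, the factor that drives subunit genes when proteasome activity is short, was at 469 ± 98.6 and 533 ± 63.0 CPM (0.18 ± 0.11, adjusted p = 0.346). Its lowest value was that of control 19, at 277 CPM, without which the log2 fold change was 0.12. The list of transcriptional control to which Nfe2l1 belongs had a median of -0.00 with 3 of 6 above 0.

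Among the muscle ubiquitin ligases 6 of 8 were above 0 (median 0.16), and edgeR called 0. Trim63 (MuRF1) was at 192 ± 38.6 and 226 ± 23.9 CPM (0.23 ± 0.11, adjusted p = 0.222), and Fbxo32 (atrogin-1) at 80.2 ± 15.2 and 91.1 ± 11.8 (0.18 ± 0.10, adjusted p = 0.315). Control 19, low in cardiomyocyte markers, held the lowest control value of both, 95.1 CPM for Trim63 and 47.2 for Fbxo32. Without it the median of the 8 ligases was 0.09, Trim63 had 0.16 and Fbxo32 0.12, and without the 4 libraries with lung transcripts Trim63 had 0.11. Nedd4 was at 569 ± 57.6 and 641 ± 39.6 CPM (0.17 ± 0.06, adjusted p = 0.114), and DESeq2 called it (adjusted p = 0.0356), with 6.14% of all genes called. The ubiquitin genes had a median of 0.08 with 3 of 4 above 0.

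The inducible catalytic subunits were lower with rapamycin relative to the constitutive ones whose places they take in immune cells and under interferon. Psmb10 fell from 44.9 ± 5.46 to 33.9 ± 4.17 CPM (-0.41 ± 0.08 SE, adjusted p = 0.0120), with 10 of 10 rapamycin hearts below the control median. Psmb8 was at 33.3 ± 8.73 and 23.5 ± 7.42 CPM (-0.50 ± 0.17, adjusted p = 0.0860). Psmb9 was at 19.4 ± 6.02 and 13.6 ± 5.54 CPM (-0.51 ± 0.20, adjusted p = 0.142).

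A log2 ratio of counts within a library sets each against its constitutive counterpart without a scaling factor, and its level also depends on gene length, so that only differences are read. Psmb10 to Psmb7 ran from -2.06 through a median of -1.87 to -1.52 in control and from -2.71 through -2.25 to -1.96 in rapamycin hearts. The mean fell by 0.44, with 9 of 10 rapamycin hearts below every control heart (2-sided permutation test, 100000 resamples, p = 9e-05, adjusted over 3 ratios 0.00027). Psmb8 to Psmb5 ran from -1.31 through -0.65 to 0.29 in control and from -1.72 through -1.37 to -0.43 in rapamycin hearts. It fell by 0.62, with 6 of 10 below every control heart (permutation p = 0.0120, adjusted 0.0159). Psmb9 to Psmb6 ran from -2.62 through -2.21 to -1.12 and from -3.24 through -2.85 to -1.62. It fell by 0.62, with 6 of 10 below every control heart (permutation p = 0.0159, adjusted 0.0159). The 3 ratios use the same counts as the fits of Psmb10, Psmb8 and Psmb9 above and were chosen with earlier results known, so they are not independent evidence. Psmb8 and Psmb9 themselves were not called over all genes, and Psmb5, Psmb6 and Psmb7 had values of 0.04 to 0.11 that were not called.

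Most macrophage markers were lower in the same group. The sum of 6 macrophage markers was 460 to 3795 CPM (median 631) in control and 254 to 656 (median 331) in rapamycin hearts, with 5 of 6 genes lower by edgeR. The 3795 CPM was that of control 19, the library with 28091 CPM of lung markers. T and NK cell markers summed to 8.41 to 42.4 CPM and 2.19 to 15.2 CPM, with 2 of 4 tested genes lower, and B and plasma cell markers to 0.765 to 240 and 4.06 to 51.0 CPM with 0 of 4 called. The 15.2 and 51.0 CPM were those of rapamycin 8, the heart with 20.1 CPM of thymocyte genes. No gene of these lists was at 0 in all libraries, and their part in the result was not tested.

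**Figure D5:**
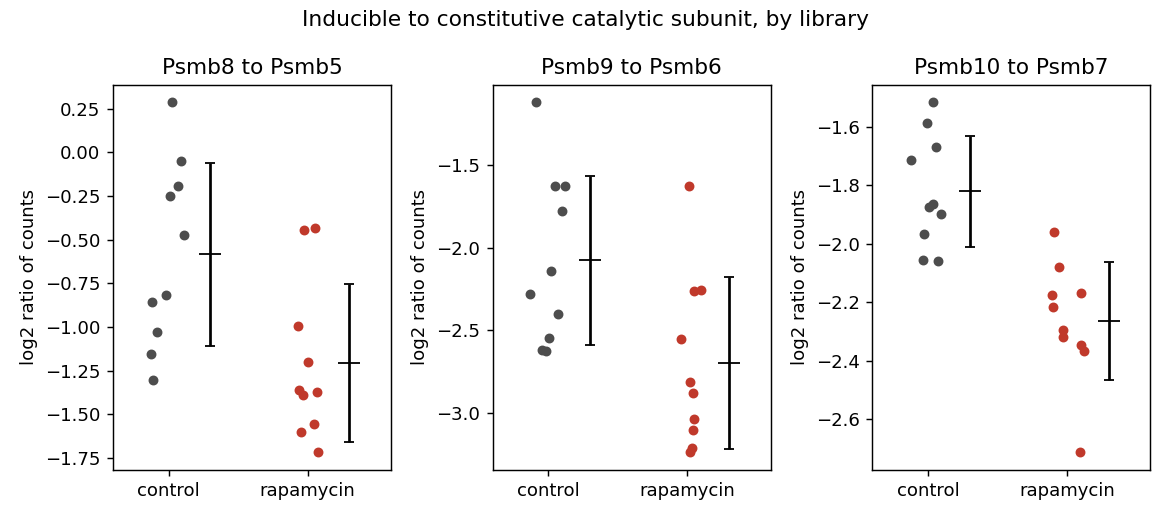
Log2 ratio of the counts of each inducible subunit to those of the constitutive subunit it replaces, 1 point per heart, with mean and SD beside each group. The y axes differ and do not start at 0; the ratios are lower with rapamycin by 0.62, 0.62 and 0.44 from left to right.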

How the data were processed

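Poly(A) RNA from 20 frozen hearts was sequenced as 50 bp pairs, and reads were mapped to unique sites of MGSCv37 with at most 2 mismatches, per the labels' protocols and design text. Not given in the sources used here: aligner, counter, strand setting and sex. The authors deposited raw counts per symbol and a table of CPM for 700 genes; 696 of these matched by symbol and equalled count over column total within 0.001 CPM. Columns were assigned by name, that of rapamycin 4 as the only rapamycin title with its number. Replicates are mice.

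Counts were tested with edgeR 4.0.16 in R 4.3.3 (filterByExpr, TMM, quasi-likelihood F-test of all 13940 genes in 20 libraries, Benjamini-Hochberg, threshold 0.05) and, as an alternative, DESeq2 1.42.0. Normalised CPM use TMM sizes, log2 CPM a prior count of 2, and ratios 2 added counts. Standard errors are the fold change over the root of F. Lengths come from GENCODE M21 and promoters from RefSeq. The fit was tested on simulated data. Members with their roles, the 3 smallest p values per class and extremes of level were named. The members, the lists and the alternatives were chosen with earlier results of these data known. Other scalings, filters and left-out libraries were tried.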

Additional observations from a re-analysis of the deposited data

Results flagged for a closer look

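A sample was singled out where its gap to the nearest other of its group of 10 exceeded 0.466 of the range. That limit marks about 1 in 20 groups when values are independent and roughly normal. Here the genes share libraries and the Psmb11 counts are mostly 0, so the share flagged is not set against that rate. The rule flagged 11 of 90 groups. Control 19 stood apart in 6 of them on the log2 CPM scale. It was lowest for Psmb2 at 5.37 (the next was 5.78), Psmc3 at 7.09 (7.30), Psmd1 at 6.72 (6.98), Psmd11 at 5.27 (5.58) and Psmd12 at 5.79 (6.25), and highest for Psmd10 at 4.09 (3.89). It is the library with 28091 CPM of lung markers and the lowest cardiomyocyte sum; the part of either in these values was not tested.

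The others were single hearts. Psmd8 was highest in control 13 at 6.83 (the next was 6.41), Psmc6 in rapamycin 15 at 7.13 (6.90) and Psmd10 in rapamycin 12 at 4.17 (3.82). Psmb11 had 40.0 counts in control 17, where the next control heart had 2, and 27.0 in rapamycin 8, where the other 9 rapamycin hearts had 0. Those 2 hearts are also the ones with the highest sums of thymocyte markers.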

How the results depend on the processing

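No paired analysis was possible because each library number from 1 to 20 occurs in 1 group. Without a scaling factor edgeR called 1332 genes, or 9.56% of those tested (3.60% of the calls higher, against 20.5% with TMM). Among them were 2 members and 3 pathway genes (Psmb8 -0.64, Psmb10 -0.53 and Mdm2 -0.20). The core and regulatory medians were -0.12 and -0.080, with all genes at -0.13. In all 17 members and 15 pathway genes then turned from above to below 0, among them Psmb2 -0.034, Psmb5 -0.012, Psmb6 -0.022, Psmb7 -0.084, Psmc2 -0.029, Psmc5 -0.025, Psmd1 -0.0061, Psmd9 -0.038, Psmd11 -0.080, Psmd12 -0.023 and Psme1 -0.015. DESeq2 called 1018 genes (6.14% of 16574), 2 of 35 members and 3 of 43 pathway genes. Psmd5, near 0, was 0.012 with it, 0.0059 with its size factors in edgeR and 0.020 with no filter. Without the 4 libraries with lung transcripts above background (control 1, 19 and 20, rapamycin 15) 280 genes were called and 1 member, Psmd14 (-0.25, adjusted p = 0.0472), and Psmb7 was -0.018 and Psmc4 0.0020. With TGACTCAGC alone 0 promoters matched instead of 5. The cause of these shifts was not tested. With 1 library left out, the calls ran from 165 (without rapamycin 18) to 791 (without rapamycin 5) over all genes, from 0 to 1 over members and from 1 to 3 over pathway genes (3 without rapamycin 14, with Psmb8 and Psmb9). The core median ran from -0.01 to 0.03, the regulatory from 0.03 to 0.08, and their difference from -0.07 to -0.02. Values near 0 changed sign: Psmd5 ran from -0.041 to 0.067, Psmc4 from -0.041 to 0.015 and Psmd10 from -0.088 to 0.0013. Psmb10 was called in all 20 of these fits, as were the 3 ratios; without control 19 these differed by -0.42 (Psmb10 to Psmb7), -0.53 (Psmb8 to Psmb5) and -0.52 (Psmb9 to Psmb6). Counts were lowest, and counting error largest, for Psma8 and Psmb11.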

Other observations

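A CCAAT box, searched after the data were seen, was in 12 of 29 member promoters (41.4%), against 41.1% of all genes and 42.5% of tested genes. Pomp was below the control median in 10 of 10 rapamycin hearts, at 78.8 ± 9.49 CPM in control and 75.3 ± 5.77 in rapamycin hearts, a difference well inside the SD. The E1 enzyme Uba1 was at 171 ± 29.3 and 192 ± 18.2 CPM (log2 fold change 0.17, adjusted p = 0.283 by edgeR), and Uba6 at 14.8 ± 2.55 and 14.0 ± 2.23 (-0.07, 0.733).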
